A study of Mus musculus with 8 samples.

Results

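The genes described here are 52 that encode the transport machinery and the gate of the primary cilium, the organelle in which Smo, the transducer of Hedgehog signals, acts. They were chosen by name and known function and not by a rule on measured values, though earlier results of these data were known. All 52 were found among the 24539 genes listed in the series. Their RNA was measured by sequencing in nephron progenitors, the stem-like cells of the developing kidney from which nephrons form, of E18.5 mouse embryos. All 4 groups carried Six2GFPcre, a transgene that makes a fluorescent Cre fusion protein in Six2-expressing nephron progenitors, and cells were sorted by it, so every comparison is made within Cre-carrying cells. The groups had the genotypes Smo c/c (KO-labelled), Smo c/+ (Het-labelled), Smo +/+ (WT-labelled) and Smo +/+ with Rosa26 SmoM2/+ (SmoM2-labelled), where SmoM2 is an active form of Smo. Each group had 2 libraries. The labels do not say whether the 2 libraries came from separate embryos or whether embryos were pooled, so p-values measure only the spread between these libraries.

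A primary cilium is assembled by intraflagellar transport, in which the IFT-B complex and a kinesin motor carry cargo outward and the IFT-A complex and a dynein motor carry it back. The BBSome couples membrane proteins to this traffic, and the transition zone at the base of the cilium controls what enters and leaves. Smo moves into the cilium when Hedgehog ligand binds Ptch1, and defects in many of these genes cause cystic kidney disease.

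Promoter sequences are shown first because a motif known from cilium genes recurs in them. RFX transcription factors, which control cilium genes in animals, bind an inverted repeat called the X-box. RefSeq promoters of build GRCm38.p6, from 250 bases before to 50 bases after the start of the gene, were available for 47 of the 52 genes. The full site searched was GTTNCC, then 0 to 3 bases, then GGNAAC, on both strands. It was found in 6 of the 47 promoters, a share of 12.8%, and in 253 of 27025 promoters of all genes, a share of 0.936%. The 6 sites are in capitals below, each within a stretch printed on the strand of its gene. The stretches shown are Bbs7 (chr3:36613454-36613553, minus strand), Mks1 (chr11:87853115-87853214, plus strand), Ift57 (chr16:49699190-49699289, plus strand), Tctn3 (chr19:40612316-40612415, minus strand), Tctn1 (chr5:122264411-122264440, minus strand) and Ahi1 (chr10:20952560-20952589, plus strand).
Bbs7: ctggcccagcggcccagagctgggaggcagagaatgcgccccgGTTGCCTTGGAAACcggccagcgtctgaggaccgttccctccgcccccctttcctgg
Mks1: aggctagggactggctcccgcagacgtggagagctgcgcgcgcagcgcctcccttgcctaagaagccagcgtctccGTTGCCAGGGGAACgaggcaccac
Ift57: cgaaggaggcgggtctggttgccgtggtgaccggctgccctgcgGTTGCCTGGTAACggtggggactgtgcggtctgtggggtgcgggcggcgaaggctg
Tctn3: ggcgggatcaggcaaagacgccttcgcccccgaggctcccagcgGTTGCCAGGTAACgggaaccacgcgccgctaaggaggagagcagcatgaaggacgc
Tctn1: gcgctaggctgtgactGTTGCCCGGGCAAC
Ahi1: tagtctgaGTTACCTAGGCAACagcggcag
The sites of Bbs7, Mks1, Ift57 and Tctn3 lay before the start that RefSeq gives, and those of Tctn1 and Ahi1 lay after it. By the GENCODE start, the site of Ift57 lies just inside the gene. The left arm alone, GTTGCC on either strand, which overlaps the full site, was present in 21 of the 47 promoters (44.7%) and in 14.1% of all promoters. The loose form of the X-box, searched by name on both strands, was present in 27 of the 47 (57.4%) and in 37.9% of all. A match of letters is not a measured binding site, and no binding was measured here.

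The sorted cells carried nephron progenitor markers in all 8 libraries, with Six2 between 1132 and 2105 CPM (counts scaled by library size). Ptprc reached at most 1 count and Pecam1 at most 3 counts, which are defining genes of white blood cells and endothelium. Other genes of these lists were higher. Cd68 and Csf1r of the white blood cell list lay at 10.8 to 44.8 and 0 to 5.54 CPM, and the endothelial Cldn5 reached 22.1 CPM. The stromal factor Foxd1 ranged from 3.70 to 12.8 CPM in the KO-labelled, 14.6 to 22.5 in the Het-labelled, 171 to 197 in the WT-labelled and 301 to 385 in the SmoM2-labelled libraries. The stroma list as a whole did not follow Foxd1: it summed to 174 to 677 CPM in the KO-labelled, 256 to 410 in the Het-labelled, 334 to 505 in the WT-labelled and 548 to 671 in the SmoM2-labelled libraries, and Meis1 rose by 2.68 and 2.89 on the log2 scale in the KO- and Het-labelled groups (edgeR adjusted p = 2.28e-05 and 1.16e-05). Total counts ran from 4422305 to 10305398 and were lowest in both KO-labelled libraries. Smo counts were 59 and 51 in the KO-labelled, 108 and 141 in the Het-labelled, 3893 and 3442 in the WT-labelled and 5915 and 5443 in the SmoM2-labelled libraries. The Het-labelled libraries thus held far less Smo RNA than their label of 1 intact allele would give, with a log2 change of -4.28 against the WT-labelled libraries, close to the -4.93 of the KO-labelled ones. Groups are therefore named by their labels throughout. From Xist and Y-linked genes, both KO-labelled libraries were male and both Het-labelled libraries female, while the WT- and SmoM2-labelled groups held 1 of each.

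All 52 genes passed the filter on low counts that kept 13459 genes for testing. Levels between genes are compared per length, in the authors' RPKM. Arl3, a small GTPase that releases lipid-modified cargo in the cilium, had the highest mean of 66.3 RPKM, followed by the IFT-B subunit Ift20 at 37.8 and the transition zone protein B9d1 at 33.0. Arl3 measured 79.6 and 76.4 RPKM in the KO-labelled, 47.2 and 51.3 in the Het-labelled, 57.0 and 82.0 in the WT-labelled and 65.9 and 70.8 in the SmoM2-labelled libraries. The lowest 3 were the chaperonin-like Bbs10 at 0.993 RPKM, Rpgrip1l at 1.60 and Cep290 at 1.61, and the lowest count behind any value was 10, for Bbs10. Ift20 ranged from 31.8 to 48.1 RPKM over the 8 libraries, B9d1 from 21.4 to 43.1, Bbs10 from 0.314 to 1.57, Rpgrip1l from 0.832 to 2.32 and Cep290 from 0.840 to 2.46. The genes summed to 2220 to 2225 CPM in the KO-labelled, 2396 to 2535 in the Het-labelled, 2236 to 2450 in the WT-labelled and 1990 to 2281 in the SmoM2-labelled libraries. The KO-labelled sums lay just below the WT-labelled ones, while the Het- and SmoM2-labelled ranges overlapped the WT-labelled range. Summed in RPKM, which weights short genes more, the order differed, with 689.9 to 705 in the KO-labelled, 610.0 to 639 in the Het-labelled, 602 to 671 in the WT-labelled and 551 to 578 in the SmoM2-labelled libraries.

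**Figure D1:**
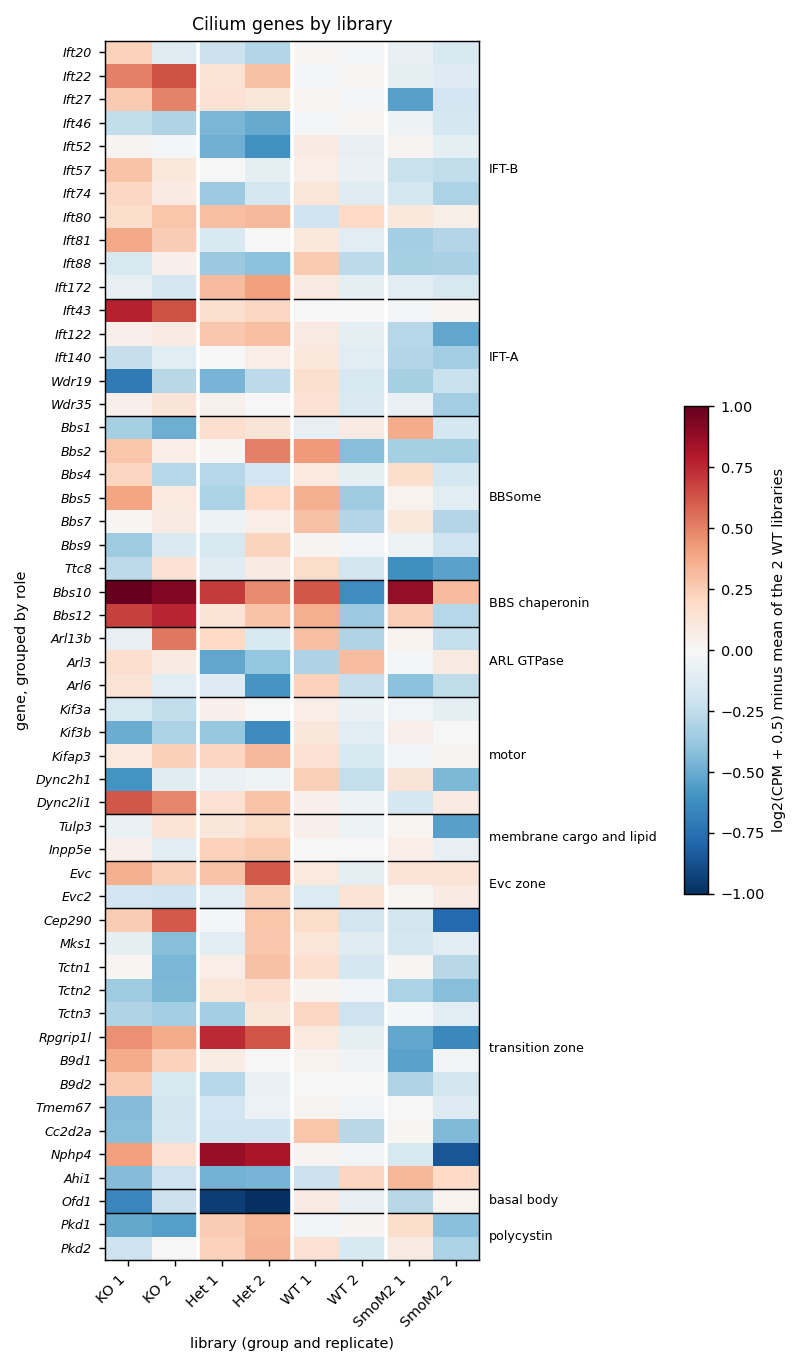
Level of each of the 52 genes in each of the 8 libraries, as log2 of CPM plus 0.5 minus the mean of the 2 WT-labelled libraries, ordered by role; colours are capped at 1 in either direction. Ofd1 is lowest in the Het-labelled columns and Nphp4 is highest there.

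Of the 52 genes, 16 differed among the 4 groups (30.8%), against 41.0% of all tested genes, by edgeR's quasi-likelihood test with Benjamini-Hochberg adjustment over all tested genes. The share of the cilium genes was thus below the share of the whole table. IFT-B had 6 of 11 genes among them, IFT-A 2 of 5, the motors 2 of 5 and the transition zone 4 of 12. Ofd1, a basal body protein, and Pkd1, which encodes the receptor-like polycystin mutated in autosomal dominant polycystic kidney disease, were also called. None of the 7 BBSome genes, the 2 chaperonin-like genes, the 3 ARL GTPases, Tulp3, Inpp5e, Evc and Evc2 was called in this test. In comparisons of 2 groups, 13 genes were called at least once, and Ift27, Ift81, Ift122 and Ahi1 were called over the 4 groups but in no such comparison. These are bulk samples, so fewer cells of a type and less RNA per cell cannot be told apart.

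Removing Smo is the question of the KO- against WT-labelled comparison, in which 3 genes rose and 2 fell. That is 9.62% of the 52, against 23.0% of all tested genes (11.6% higher and 11.4% lower). Ift43, Ift22 and Dync2li1 rose, and Tctn2 and Pkd1 fell. The median log2 change was 0.01, against 0.03 for all tested genes, and the median size of the change was 0.24, against 0.35. The sign of the median rested on single libraries, since it was 0.08 without WT-labelled replicate 1 and -0.12 without WT-labelled replicate 2, and it was -0.07 with sex as a covariate. For 48 of the 52 genes, or 92.3%, the 95% interval of the change lay within 2-fold in either direction, which held for 61.3% of all tested genes. Fewer of the 52 genes were called without either KO-labelled library, either WT-labelled library or Het-labelled replicate 2. The Het-labelled library does not enter this comparison, and fewer libraries enter each of these fits. The cause of the fall was not tested.

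In the Het- against WT-labelled comparison, 3 genes rose and 4 fell, or 13.5% of the 52, against 25.3% of all tested genes (13.1% higher and 12.2% lower). Nphp4, Rpgrip1l and Evc rose, and Ofd1, Ift52, Kif3b and Ift46 fell. The interval lay within 2-fold for 48 of the 52. The count of 7 became 2 without either Het-labelled library. The 2 comparisons share the WT-labelled libraries, and no gene was called in both. The KO- against Het-labelled comparison sets the 2 male KO-labelled libraries against the 2 female Het-labelled ones. Its median log2 change was 0.01, with 26 of the 52 negative, and -0.22, with 34 negative, when sex was a covariate. No WT-labelled library enters it, and 1 gene rose (Ift52) and 3 fell (Pkd1, Tctn2 and Ift172). That is 7.69%, against 9.43% of all tested genes (4.33% higher and 5.10% lower). The count was 0 when any of these 4 libraries was left out.

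Other measures moved with these groups. Beside the called counts below, 11.6% of all tested genes rose and 11.4% fell in the KO- against WT-labelled comparison. In the Het- against WT-labelled comparison, 13.1% rose and 12.2% fell. Summed dissociation-stress genes lay at 4043 to 5938 CPM in the KO-labelled and 7967 to 7998 in the Het-labelled libraries, against 2870 to 3040 in the WT-labelled and 3290 to 4775 in the SmoM2-labelled libraries, and 4 and 6 of these 10 genes rose against the WT-labelled group. Early nephron genes, which mark cells leaving the progenitor state, summed to 1431 to 1767 CPM in the KO-labelled libraries, against 545 to 827 in the Het-labelled, 534 to 736 in the WT-labelled and 508 to 689 in the SmoM2-labelled libraries, and 8 of 10 rose in the KO-labelled group. Proliferation genes summed to 1383 to 1948 CPM in the KO-labelled, 1612 to 1613 in the Het-labelled, 1250 to 1518 in the WT-labelled and 1335 to 1406 in the SmoM2-labelled libraries. Of 10 nephron progenitor genes, 5 rose in the Het-labelled group, with sums of 5458 to 5904 CPM against 3790 to 4263 in the WT-labelled libraries, and 3 rose and 1 fell in the KO-labelled group. Low red blood cell transcripts summed to 13.7 to 45.2 CPM in the KO-labelled and 19.9 to 24.9 in the Het-labelled libraries, against 4.10 to 5.23 in the WT-labelled and 2.77 to 7.87 in the SmoM2-labelled libraries. Of the 4 tested entries, 3 and 2 rose against the WT-labelled group. The entries Hba-a1 and Hba-a2 held the same lowest and highest level, 0.462 and 13.1 CPM. These counts and sums may therefore hold the same reads more than once. The only tested endothelial gene, Cldn5, rose by 3.58 in the KO-labelled group (edgeR adjusted p = 0.00018), and 2 of 4 tested collecting duct genes fell there. White blood cell genes summed to 13.9 to 17.9 CPM in the KO-labelled and 43.7 to 47.2 in the Het-labelled libraries. Their sums were 26.0 to 30.5 in the WT-labelled and 24.7 to 31.2 in the SmoM2-labelled libraries. Of the 2 tested, 1 fell in the KO-labelled and 1 rose in the Het-labelled group. The part of these lists in the cilium gene results was not tested.

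**Figure D2:**
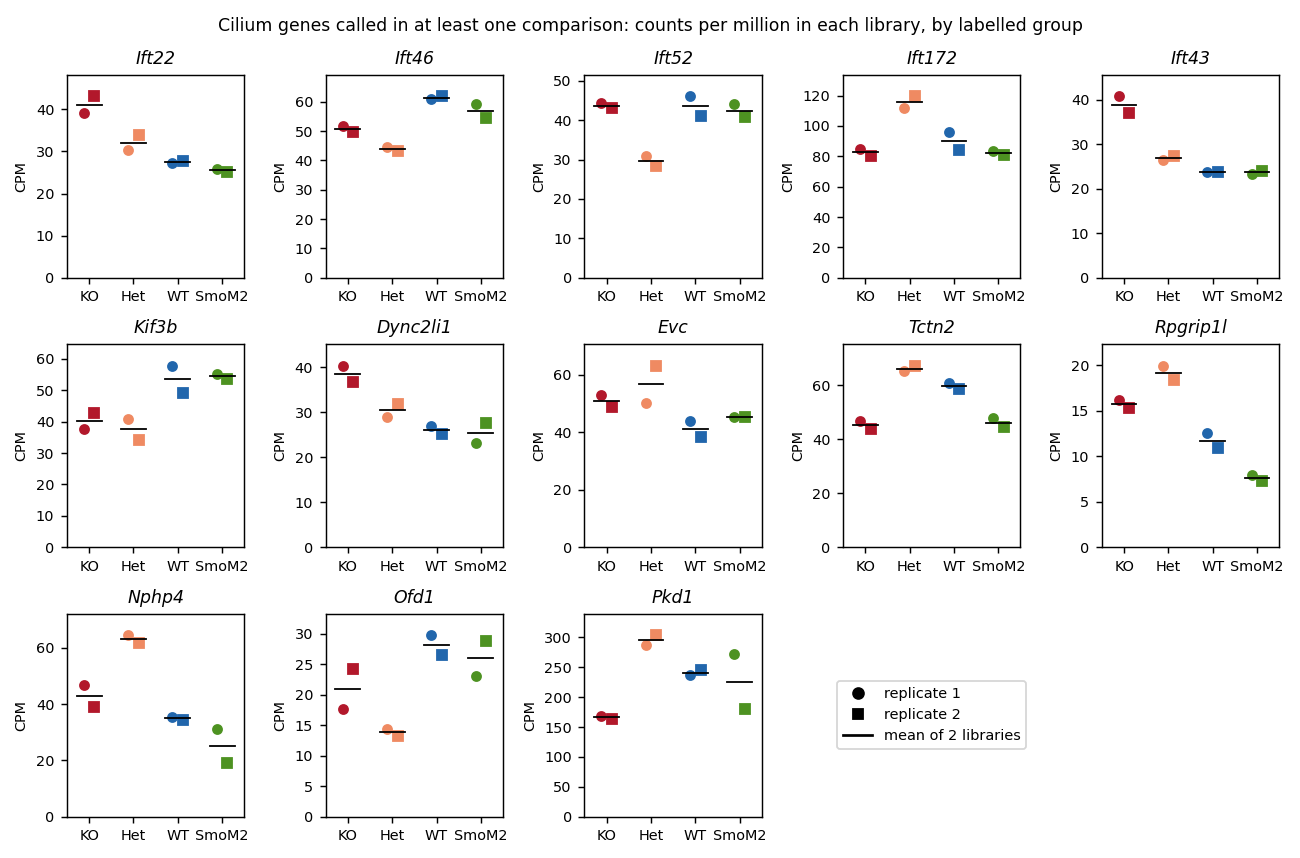
CPM of the 13 genes called in at least 1 comparison of 2 groups, with a point for each library and a bar at the mean of its labelled group. The KO-labelled points for Ift43 (40.7 and 37.0) stand above all others, and the Het-labelled points for Ofd1 (14.4 and 13.2) stand below all others.

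Among the IFT-B genes, Ift22, Ift46, Ift52 and Ift172 were called in comparisons of 2 groups. Ift22 encodes a small GTPase-like subunit (chr5:136908150-136915404, plus strand, coordinates in GRCm38 from GENCODE M21 here and below). It measured 39.2 and 43.1 CPM in the KO-labelled, 30.3 and 33.8 in the Het-labelled, 27.3 and 27.8 in the WT-labelled and 25.9 and 25.2 in the SmoM2-labelled libraries. Both KO-labelled libraries lay above all others and the Het-labelled libraries lay between. The log2 change against the WT-labelled group was 0.58 (SE 0.15, edgeR quasi-likelihood adjusted p = 0.0181). Ift52 (chr2:163017354-163046141, plus strand), a core subunit of IFT-B, measured 44.3 and 43.1 CPM in the KO-labelled, 31.0 and 28.4 in the Het-labelled, 46.0 and 41.0 in the WT-labelled and 44.2 and 40.7 in the SmoM2-labelled libraries. The Het-labelled libraries were low and did not overlap any other group, while the other 3 groups overlapped. Ift52 fell by 0.55 on the log2 scale against the WT-labelled group (SE 0.14, edgeR adjusted p = 0.0147), and it was 0.56 higher in the KO- than in the Het-labelled group (SE 0.14, edgeR adjusted p = 0.0351).

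Ift46 (chr9:44767908-44793447, plus strand), which helps bring cargo onto IFT-B, measured 51.6 and 49.6 CPM in the KO-labelled, 44.5 and 43.1 in the Het-labelled, 60.8 and 61.9 in the WT-labelled and 59.2 and 54.3 in the SmoM2-labelled libraries. The 4 groups did not overlap, with the Het-labelled libraries lowest. Its log2 change in the Het- against WT-labelled comparison was -0.48 (SE 0.12, edgeR adjusted p = 0.0147), and the value of -0.28 in the KO- against WT-labelled comparison did not pass. Ift172 (chr5:31253277-31291116, minus strand), the largest IFT-B subunit, was high in the Het-labelled libraries at 111.9 and 119.6 CPM. It measured 85.0 and 80.1 CPM in the KO-labelled, 95.9 and 84.4 in the WT-labelled and 83.4 and 80.6 in the SmoM2-labelled libraries, and the KO-labelled range overlapped the other two. It fell by 0.49 in the KO- against Het-labelled comparison (SE 0.13, edgeR adjusted p = 0.0344). Ift52 and Ift172, subunits of the same complex, thus stood in opposite directions in the Het-labelled libraries. Ift27, a GTPase that links the complex to the BBSome, and Ift81, which binds tubulin, differed over the 4 groups only. Ift27 lay at 23.0 to 27.2 CPM in the KO-labelled, 20.7 to 21.3 in the Het-labelled, 19.0 to 19.4 in the WT-labelled and 13.0 to 16.8 in the SmoM2-labelled libraries. Ift81 lay at 41.8 to 45.6, 31.4 to 35.0, 32.6 to 37.7 and 27.5 to 28.5 CPM in the same order. The KO-labelled libraries were highest and the SmoM2-labelled ones lowest for both genes. Of Ift20, Ift57, Ift74, Ift80 and Ift88, none was called in any test, with log2 changes between -0.43 and 0.42 over the 4 comparisons.

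Among the IFT-A genes, Ift43 (chr12:86082541-86162459, plus strand), a small subunit needed for retrograde transport, changed most. It measured 40.7 and 37.0 CPM in the KO-labelled, 26.5 and 27.3 in the Het-labelled, 23.7 and 23.6 in the WT-labelled and 23.3 and 24.0 in the SmoM2-labelled libraries. The KO-labelled libraries stood apart from the rest. The log2 change against the WT-labelled group was 0.72 (SE 0.15, edgeR adjusted p = 0.00784), the largest among the genes that rose in this comparison. The value of 0.53 against the Het-labelled group missed the threshold (edgeR adjusted p = 0.0531). Ift122 differed over the 4 groups without a call between any 2, from 53.0 and 62.5 CPM in the SmoM2-labelled to 92.1 and 93.9 in the Het-labelled libraries. Ift140, Wdr19 and Wdr35, the other subunits, were called in no test. Wdr19 had the lowest KO-labelled value of them, with a log2 change of -0.49 (edgeR adjusted p = 0.0746).

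None of the 7 BBSome genes was called in any comparison. Bbs1 had the largest size of change among them against the Het-labelled group, at -0.56 for the KO-labelled group (adjusted p by edgeR = 0.0716), and Ttc8 against the WT-labelled group, at -0.60 for the SmoM2-labelled group (edgeR adjusted p = 0.438). The intervals lay within 2-fold for all 7 genes in the KO- and in the Het- against WT-labelled comparison. Bbs10 and Bbs12, which help assemble the BBSome, had log2 changes of 1.05 and 0.70 in the KO-labelled group, with wide SEs of 0.50 and 0.31, and neither passed (edgeR adjusted p = 0.148 and 0.124). Bbs10 lay at 1.09 to 5.09 CPM, and its WT-labelled libraries differed from each other, at 3.26 and 1.09. Arl3, Arl6 and Arl13b, GTPases that sort membrane cargo, were not called either, though Arl3 was low in the Het-labelled libraries at 47.7 and 52.3 CPM against 55.3 and 85.1 in the WT-labelled libraries (log2 change -0.49, edgeR adjusted p = 0.0686).

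Of the motor genes, Dync2li1 (chr17:84626496-84655588, plus strand), a light intermediate chain of the ciliary dynein, measured 40.3 and 36.8 CPM in the KO-labelled, 29.0 and 31.8 in the Het-labelled, 27.0 and 25.1 in the WT-labelled and 23.1 and 27.6 in the SmoM2-labelled libraries. The KO-labelled libraries lay above all others. The log2 change against the WT-labelled group was 0.56 (SE 0.16, edgeR adjusted p = 0.0280). Kif3b (chr2:153291413-153333390, plus strand), a subunit of the anterograde kinesin, measured 37.6 and 42.7 CPM in the KO-labelled, 40.9 and 34.3 in the Het-labelled, 57.8 and 49.2 in the WT-labelled and 55.3 and 53.5 in the SmoM2-labelled libraries. The KO- and Het-labelled libraries overlapped each other and lay below the other 2 groups. The change was -0.51 in the Het-labelled group (SE 0.15, edgeR adjusted p = 0.0259) and -0.41 in the KO-labelled group, which did not pass (edgeR adjusted p = 0.0648). Its partners Kif3a and Kifap3 were not called, with changes of -0.21 and 0.16 in the KO-labelled group, and neither was the dynein heavy chain Dync2h1, at -0.37.

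Tulp3, which delivers receptors to the cilium, and Inpp5e, the phosphatase that sets its membrane lipids, showed no call. Their changes against the WT-labelled group were 0.04 and -0.03 in the KO-labelled and 0.15 and 0.25 in the Het-labelled libraries, and all 4 intervals lay within 2-fold. Exons of Inpp5e overlap Pmpca on the opposite strand over 20.32% of their length. Evc (chr5:37289098-37336894, minus strand), which binds Smo at the base of the cilium together with Evc2, measured 53.1 and 48.8 CPM in the KO-labelled, 50.4 and 63.2 in the Het-labelled, 44.1 and 38.6 in the WT-labelled and 45.3 and 45.3 in the SmoM2-labelled libraries. The WT-labelled libraries were lowest and overlapped no other group. Evc was 0.45 higher in the Het-labelled group (SE 0.15, edgeR adjusted p = 0.0406), but the test over the 4 groups did not call it (adjusted p = 0.0899). Evc2, its neighbour and partner, had a change of 0.06.

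Among the transition zone genes, Nphp4 and Rpgrip1l, which belong to the nephronophthisis module, rose in the Het-labelled group, and Tctn2, a membrane-linked tectonic protein, fell in the KO-labelled group. Nphp4 (chr4:152476706-152563183, plus strand) measured 46.7 and 39.0 CPM in the KO-labelled, 64.4 and 61.8 in the Het-labelled, 35.6 and 34.3 in the WT-labelled and 31.3 and 19.1 in the SmoM2-labelled libraries. The 4 groups did not overlap. The Het-labelled change was 0.85 (SE 0.20, edgeR adjusted p = 0.00953), the largest increase among the 52 in that comparison. Rpgrip1l (chr8:91217030-91313262, minus strand) measured 16.2 and 15.2 CPM in the KO-labelled, 19.9 and 18.3 in the Het-labelled, 12.5 and 10.9 in the WT-labelled and 7.98 and 7.28 in the SmoM2-labelled libraries. Its 4 groups kept the order of Nphp4, with no overlap. The Het-labelled change of Rpgrip1l was 0.71 (SE 0.20, edgeR adjusted p = 0.0231), while the KO-labelled change of 0.42 and the SmoM2-labelled change of -0.62 did not pass (edgeR adjusted p = 0.159 and 0.406). Tctn2 (chr5:124598749-124627738, plus strand) measured 46.7 and 43.8 CPM in the KO-labelled, 65.2 and 67.3 in the Het-labelled, 61.1 and 58.8 in the WT-labelled and 48.0 and 44.5 in the SmoM2-labelled libraries. The KO- and SmoM2-labelled libraries overlapped each other and lay below the other 2 groups. The KO-labelled change was -0.41 against the WT-labelled group (SE 0.12, edgeR adjusted p = 0.0368) and -0.55 against the Het-labelled group (SE 0.13, edgeR adjusted p = 0.0244). Ahi1, a further transition zone gene, differed over the 4 groups only, at 23.4 and 23.6 CPM in the Het-labelled and 41.4 and 37.7 in the SmoM2-labelled libraries. Cep290, Mks1, Tctn1, Tctn3, B9d1, B9d2, Tmem67 and Cc2d2a were called in no test. Exons of Tctn1 overlap Hvcn1 on the opposite strand over 18.98% of their length, and the counting's strand setting is not given in the sources used here.

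Ofd1 (chrX:166390033-166440704, minus strand), a basal body protein on the X chromosome, showed the largest decrease of the 52 genes over the 4 comparisons. It measured 17.7 and 24.2 CPM in the KO-labelled, 14.4 and 13.2 in the Het-labelled, 29.7 and 26.6 in the WT-labelled and 23.1 and 28.9 in the SmoM2-labelled libraries. The Het-labelled libraries lay below all others. The log2 change against the WT-labelled group was -1.02 (SE 0.21, edgeR adjusted p = 0.00534). Both Het-labelled libraries were female, and Ofd1 was at 26.6 CPM in the female and 29.7 in the male WT-labelled library, and at 28.9 in the female and 23.1 in the male SmoM2-labelled library. With sex as a covariate, an alternative chosen after seeing the data, the change was -1.06 (edgeR adjusted p = 0.00744). Exons of Ofd1 overlap Trappc2 on the opposite strand over 2.94% of their length.

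Pkd1 (chr17:24549834-24596508, plus strand) measured 169 and 164 CPM in the KO-labelled, 287 and 303.5 in the Het-labelled, 237 and 245 in the WT-labelled and 272 and 180.2 in the SmoM2-labelled libraries. The KO-labelled libraries were lowest, the Het-labelled ones highest, and the 2 SmoM2-labelled libraries stood on either side of the WT-labelled ones. The KO-labelled change was -0.53 against the WT-labelled group (SE 0.17, edgeR adjusted p = 0.0388) and -0.83 against the Het-labelled group (SE 0.17, edgeR adjusted p = 0.0151). Pkd2, the channel partner of Pkd1, had changes of -0.11 and -0.39 and was not called. Pkd1 is the longest of the 52 genes, at 14170 bases in the authors' table.

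Gene length moved with the KO-labelled changes. The 52 genes run from 802 to 14170 bases with a median of 3406, against 3016 for all tested genes. Over the whole table, Spearman's rho between length and log2 change was -0.383 in the KO- against WT-labelled comparison, -0.335 in the KO- against Het-labelled, -0.11 in the Het- against WT-labelled and 0.0684 in the SmoM2- against WT-labelled comparison. Over the 52 genes it was -0.457, -0.603, 0.203 and 0.00231 in the same order. These are correlations across 13459 and 52 genes that share the same libraries, and are given as a description. The tested genes were put into 4 length classes of about equal size. Of all genes in the shortest class (73 to 1902 bases), 21.7% rose and 2.70% fell in the KO- against WT-labelled comparison, while in the longest class (4566 to 83437 bases) 4.28% rose and 26.4% fell. The median changes of the cilium genes were 0.31, 0.01, -0.05 and -0.21 from the shortest to the longest class, beside 0.30, 0.12, -0.04 and -0.28 for all genes.

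The called genes lay along this gradient. Ift43, Ift22 and Dync2li1, the 3 that rose in the KO-labelled group, all belonged to the shortest class, at 809, 911 and 1327 bases. All 9 cilium genes of that class had a positive change, where 24.5% of all genes of the class had a negative one. Of the 13 in the longest class, 10 had a negative change (76.9%), beside 72% of all genes of the class. Tctn2, at 2733 bases, belonged to neither end.

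**Figure D3:**
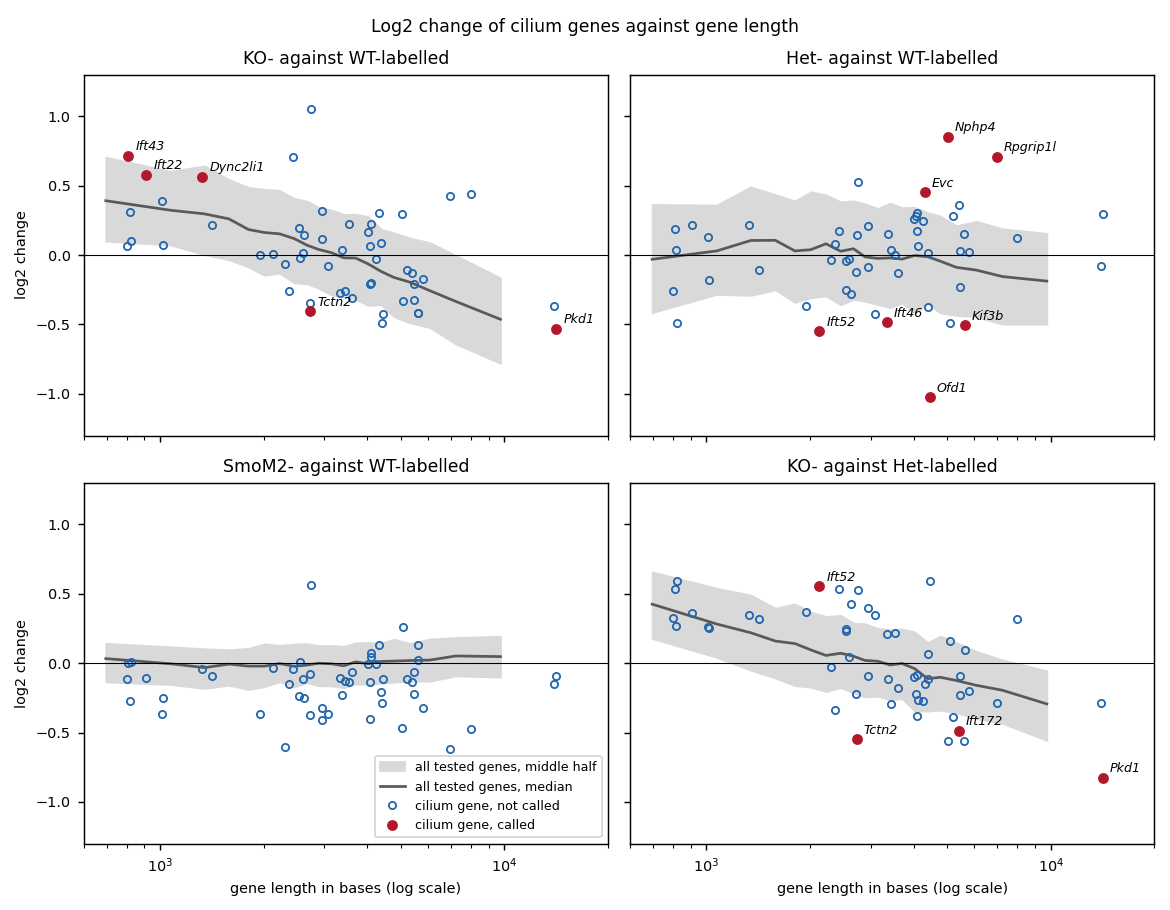
Log2 change of the 52 cilium genes against gene length in bases on a log axis, in 4 comparisons, with called genes filled and named. The line joins the medians of all tested genes in 20 length bins of about equal size. The band covers the middle of their spread in each bin, from the lower to the upper quartile. In the KO- against WT-labelled panel the line falls from short to long genes, and Ift43, Ift22 and Dync2li1 sit at the short end and Pkd1 at the long end.

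When each library's smooth trend over log2 length was removed before testing, the calls in the KO- against WT-labelled comparison changed. Tctn2 remained lower (log2 change -0.47, edgeR adjusted p = 0.0223). Ift43, Ift22 and Dync2li1 came down to 0.36, 0.25 and 0.31 and lost their calls (edgeR adjusted p = 0.118, 0.305 and 0.192). Pkd1 turned to 0.04 (edgeR adjusted p = 0.864). The long transition zone genes Rpgrip1l and Cep290 were called instead. Rpgrip1l rose by 0.74 (SE 0.20, edgeR adjusted p = 0.0322) and Cep290 rose by 0.81 (SE 0.24, edgeR adjusted p = 0.0419). Cep290, which links the ciliary membrane to the microtubules, measured 17.7 and 22.9 CPM in the KO-labelled and 16.9 and 13.0 in the WT-labelled libraries, a log2 change of 0.44 that did not pass without the correction (edgeR adjusted p = 0.236). Whether the length trend arises from the cells or from the libraries was not tested. The KO-labelled libraries also had the lowest totals.

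Of the 7 genes called in the Het- against WT-labelled comparison, 6 remained called with the trend removed, with Ofd1 at -0.96, Ift52 at -0.60, Ift46 at -0.50, Nphp4 at 0.95, Rpgrip1l at 0.87 and Evc at 0.51. Kif3b lost its call at -0.38 (edgeR adjusted p = 0.0665), and Ift172 (0.48), Pkd1 (0.44) and Arl3 (-0.52) were added. Only Tctn2 remained of the 4 called between the KO- and Het-labelled groups (-0.58, edgeR adjusted p = 0.0253), while Ift52 stood at 0.47, Ift172 at -0.40 and Pkd1 at -0.40 (edgeR adjusted p = 0.0740, 0.0835 and 0.114). Rpgrip1l was higher in the KO- and in the Het-labelled libraries than in the WT-labelled libraries when the length trend of all genes was removed. These 2 comparisons share the WT-labelled libraries. The removal follows the trend of all genes, not that of the 52. Over the 52 genes, rho with length turned from -0.457 to 0.136 in the KO- against WT-labelled comparison. In the Het- against WT-labelled comparison it grew from 0.203 to 0.381, and between the KO- and Het-labelled groups it went from -0.603 to -0.299. The genes called only after the removal lay in the direction of these positive values: Rpgrip1l, Cep290, Ift172 and Pkd1 are long and were higher, and Arl3 is short and was lower.

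**Figure D4:**
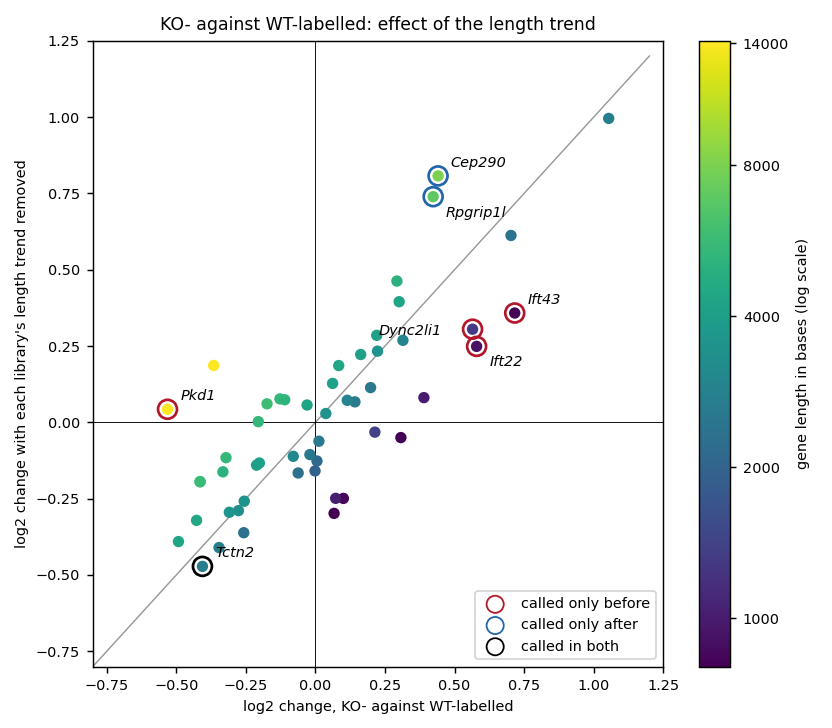
Log2 change of each of the 52 genes in the KO- against WT-labelled comparison as tested (horizontal) and with each library's length trend removed (vertical), coloured by gene length on a log scale. Pkd1 moves from -0.53 to 0.04, Ift43 from 0.72 to 0.36 and Rpgrip1l from 0.42 to 0.74, while Tctn2 is circled as called in both.

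In the SmoM2- against WT-labelled comparison, which asks what an active Smo does, none of the 52 genes was called, against 0.223% of all tested genes (0.156% higher and 0.0669% lower). By the unadjusted edgeR p-value, 7 genes (13.5%) were under 0.05, against 7.7% of all tested genes, and DESeq2 also called 0 of the 52. The median log2 change was -0.12, against 0.00 for all tested genes. Of 57 other cilium genes, described below, 63.2% had a negative change, with a median of -0.10. The change was negative for 42 of the 52 genes (80.8%), against 49.4% of all tested genes. The count of negative changes was 31 without WT-labelled replicate 1 and 33 without SmoM2-labelled replicate 2, and it lay between 40 and 46 under the other alternatives. The most negative values were those of Rpgrip1l (-0.62), Ttc8 (-0.60), Cep290 (-0.47) and Nphp4 (-0.47), and none passed (edgeR adjusted p = 0.406, 0.438, 0.754 and 0.620). The interval lay within 2-fold for 48 of the 52 genes. Hedgehog signalling did differ in these libraries, since Gli1 and Ptch1, direct targets of the pathway, were 1.27 and 1.18 higher on the log2 scale in the SmoM2-labelled group (edgeR adjusted p = 0.0427 and 0.00219).

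A list of 58 other cilium genes, of which 57 were tested, gave a background from the same organelle. In the KO- against WT-labelled comparison, 5 rose and 3 fell (14%, against 23.0% of all tested genes). In the Het- against WT-labelled comparison 10 rose and 6 fell (28.1%, against 25.3%). None was called in the SmoM2- against WT-labelled comparison (against 0.223%), and 2 rose and 2 fell in the KO- against Het-labelled one (7.02%, against 9.43%). Over the 4 groups, 23 of the 57 were called (40.4%), against 41.0% of all tested genes. Tmem107, a membrane protein of the transition zone, rose in both groups, with a mean of 29.3 ± 2.37 CPM in the KO-labelled and 29.9 ± 4.30 in the Het-labelled against 12.8 ± 0.723 in the WT-labelled libraries (SD, n = 2). Its log2 changes were 1.19 and 1.22 (edgeR adjusted p = 0.00197 and 0.00141). With the length trend removed they were 0.92 and 1.17 and remained called. Pde6d, which carries lipid-modified proteins such as Inpp5e to the cilium, rose by 1.08 in the KO-labelled group (edgeR adjusted p = 0.00165), and by 0.78 with the length trend removed. Rabl2, a GTPase that acts at the base of the cilium, rose by 0.87 (edgeR adjusted p = 0.00834).

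Pcm1, the scaffold of the centriolar satellites, fell by 0.66 in the KO-labelled group (edgeR adjusted p = 0.00833). With the length trend removed, its change was -0.28 and lost its call. In the Het-labelled group the largest increases were those of Kif17, Tmem107 and Cep41, at 1.64 for the kinesin Kif17 and 0.85 for Cep41 (edgeR adjusted p = 0.0224 and 0.0426). Kif17 was low, at 4.78 ± 2.60 CPM against 1.50 ± 0.119 in the WT-labelled group (SD, n = 2). Arl2bp, a partner of Arl3, fell by 0.94 and the IFT-B subunit Ttc26 fell by 0.75 (edgeR adjusted p = 0.000961 and 0.0145). In the KO- against Het-labelled comparison, Arl2bp was 0.75 higher on the log2 scale and Dzip1 fell by 0.48 (edgeR adjusted p = 0.0110 and 0.0344). With the length trend removed, Arl2bp was 0.68 higher and remained called (edgeR adjusted p = 0.0292). Dzip1 then stood at -0.38 and lost its call (edgeR adjusted p = 0.120).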

How the data were processed

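Polyadenylated RNA of FACS-sorted nephron progenitors was sequenced in 8 libraries, 2 in each of 4 labelled groups. The deposited table holds raw counts per gene, RPKM values computed by the authors and each gene's length in bases, per the file headers. STAR, featureCounts, Subread and the build mm10 are named in the submitters' processing notes, without versions; the annotation and strand setting are not given in the sources used here. Total listed counts ran from 4422305 to 10305398 per library.

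Tests on the counts used edgeR 4.0.16 (R 4.3.3). After filterByExpr, 13459 genes remained. TMM factors scaled the libraries, and a quasi-likelihood model with a mean per group was fitted to all 8 libraries, so the groups shared 4 residual degrees of freedom. P-values were two-sided, Benjamini-Hochberg adjustment ran over the whole tested table, and an adjusted p under 0.05 was a call. The biological coefficient of variation was 13.5%. SEs are those the test statistic implies. CPM are shares of the scaled library size. With 2 libraries against 2 an exact permutation test cannot go below 0.333, so none is given. The procedure was tested on simulated data.

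The 52 genes and all lists were chosen with earlier results of these data known. Values in every library are given for up to 5 genes higher and 5 lower per comparison, called and without overlap of libraries, and RPKM for the highest and lowest 3 by mean; other cilium genes are named up to 3 per direction, and some that the rule would name are not reported here. Alternatives were DESeq2 1.42.0 and its size factors, other count filters, library totals implied by the RPKM values, removal of each library's trend over log2 length (a natural spline with 5 degrees of freedom), a replicate block and leaving out each library. Trends over GC content and length together, sex as a covariate and leaving out both Het-labelled libraries were added after seeing the data. Coordinates and exon overlaps come from GENCODE M21 (GRCm38), and promoters from RefSeq (GRCm38.p6).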

Additional observations from a re-analysis of the deposited data

How the results depend on the processing

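Counts of called cilium genes moved with the processing in the KO-labelled comparisons. Against the WT-labelled group the count of 5 became 3 with DESeq2, with the length trend removed, with RPKM-implied totals, with GC and length trends removed together and without both Het-labelled libraries, and 8 with every gene with a count kept and with sex as a covariate. Against the Het-labelled group the count of 4 became 8 with every gene kept, 7 with sex as a covariate, and 1 with the length trend or both trends removed. The Het- against WT-labelled count of 7 became 11 with sex as a covariate. The SmoM2- against WT-labelled count was 0 under every alternative. Pkd1 turned from -0.53 to 0.043 in the KO- against WT-labelled comparison with the length trend removed.

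With each library left out in turn, the counts ranged from 1 to 6 (KO against WT), 2 to 8 (Het against WT), 0 to 6 (KO against Het) and 6 to 15 over the 4 groups, which had 16 with all libraries. The low values came without KO-labelled replicate 1 or 2 (1 and 2), WT-labelled replicate 1 or 2 (3 and 2) and Het-labelled replicate 2 (3) for KO against WT. They came without Het-labelled replicate 1 or 2 (2 and 2) for Het against WT, without either library of either group (0) for KO against Het, and without Het-labelled replicate 1 or 2 (8 and 6) over the 4 groups. A lone library of a group is assumed to vary like the other groups. Fewer libraries enter these fits. Of the 17 alternatives run for Het against WT, Ofd1 kept its call in 17, Nphp4 in 16 and Evc in 8. Of the 18 for KO against WT, Ift43 kept it in 15, Ift22 in 13, Pkd1 in 11, Tctn2 in 10 and Dync2li1 in 8.

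Same-numbered libraries of different groups deviated together with correlations of -0.0606 to 0.391, so the numbers were not taken to pair them. With a replicate block the counts were 5, 9, 0, 5 and 17 (KO, Het and SmoM2 against WT, KO against Het, and over the 4 groups). Over all genes, 3100 calls in KO against WT became 2049 with the length trend removed. The 30 in SmoM2 against WT became 82 with DESeq2, 356 with every gene kept, and 54 with the block or sex. The 1269 in KO against Het became 2217 with every gene kept, 643 with the length trend removed and 352 with both trends removed. With RPKM-implied totals the latter split was 938 higher and 511 lower, against 583 and 686. Except where samples or genes tested differ by construction, the cause was not tested.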

Other observations

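Genes of motile cilia, which move fluid and need dyneins and radial spokes that primary cilia lack, were low in these cells for the most part. Of the 17 listed, 10 passed the filter on low counts. Rsph1 lay at 3.12 to 39.5 CPM, Rsph9 at 7.84 to 12.0 and Tekt1 at 6.55 to 14.6. Among others, Dnah9, Dnaic1, Rsph4a, Tekt4, Hydin, Spag6 and Mcidas were at 0 in at least 1 library. Foxj1, the master regulator of motile cilia, was nevertheless measured at 25.1 to 55.2 CPM. It stood at 25.1 in both SmoM2-labelled libraries, below the 42.2 to 51.5 of the WT-labelled group, with a log2 change of -0.90 that did not pass (edgeR adjusted p = 0.132). Ccdc40, which helps assemble axonemal dynein arms, fell by 1.35 in the Het- against WT-labelled comparison (edgeR adjusted p = 0.00372), and Dnah11, an axonemal dynein heavy chain, rose by 1.10 in the KO-labelled and 0.85 in the Het-labelled group (edgeR adjusted p = 0.0206 and 0.0494). Foxj1, Ccdc40, Dnah11, Rsph1, Rsph9 and Tekt1 were singled out after their values were seen.

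Of the RFX factors, 5 were tested. Rfx7 fell by 0.66 in the KO- against WT-labelled comparison (edgeR adjusted p = 0.0187) and Rfx5 rose by 0.60 in the Het- against WT-labelled comparison (edgeR adjusted p = 0.0416). Each is 20% of the 5 tested, near the 23.0% and 25.3% of all tested genes called in these 2 comparisons. Rfx1, Rfx2 and Rfx3 passed in no comparison.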
